A study of Mus musculus with 5 samples.

Results

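Chromatin remodellers slide or evict nucleosomes with the energy of ATP hydrolysis, and histone-modifying enzymes add or remove the acetyl and methyl groups that mark active and silent genes. SWI/SNF, ISWI and CHD complexes are the main remodeller families, histone deacetylases (HDACs) are opposed by acetyltransferases such as Ep300 and Crebbp, and Polycomb repressive complex 2 (PRC2) methylates histone H3 at lysine 27. Several of these proteins, among them Smarca4, Smarcd3, Chd7, Ezh2 and Kmt2d, are known to be needed for heart formation in the mouse.

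The 69 members are the protein-coding genes of the GENCODE M21 annotation whose symbols start with Hdac, Chd, Kdm or Kmt and a digit or with Smarc, together with Ezh1, Ezh2, Eed, Suz12, Ep300, Crebbp, Arid1a, Arid1b and Arid2. They stand among 13486 genes with at least 1 listed tag. Of the 69 members, 67 had a tag in at least 1 library, and Chd5 and the demethylase Kdm4d had none. Tag-seq counts short cDNA tags that begin at sites of the restriction enzyme NlaIII, and a tag type is 1 distinct tag sequence. The 5 libraries come from mouse heart tissue at embryonic day (E) 10.5, with 1 library for each group, so that no difference has a replicate check. The atrio-ventricular canal (AVC), the outflow tract (OFT), the atria and the ventricles came from wild-type C57BL/6 embryos. The *Twist1* null library came from the AVC of *Twist1* knockout embryos of the ICR strain, so that genotype and strain cannot be told apart in it. Every library is a pool of embryos, and the AVC and OFT hold the endocardial cushions, from which the valves form. In such bulk tissue, fewer cells of a type and less RNA per cell cannot be told apart.

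The tags that carry the results below are shown 5′ to 3′, with the NlaIII site in lower case and the sequenced bases in capitals. The first group had a lower level in both chambers (atria and ventricles) than in either cushion library, and the Hdac1 and Kdm4a tags were not listed in the chambers. Positions are on GRCm38.
Hdac1: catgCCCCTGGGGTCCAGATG
Hdac2: catgCTTTATGTGATTGTATT
Hdac6: catgCCCCACTCACACTAAAT
Chd8: catgCTTCATCATCACCACCA
Kdm2b: catgAGCTCTTGTATTCTACT
Kdm4a: catgGAGTAGATGCTTCCAGG
The Hdac1 tag lies at chr4:129517869-129517889 on the minus strand, in coding sequence, and it also occurs in 4 other GENCODE genes without a RefSeq transcript, so its source is uncertain. The Hdac2 tag lies at chr10:37001757-37001777 on the plus strand in the 3′ UTR. The Hdac6 tag lies in coding sequence at chrX:7930467-7930487 on the minus strand. The tag of Chd8 is coding and lies at chr14:52198848-52198868 on the minus strand. The tag of Kdm2b lies in the 3′ UTR at chr5:122870870-122870890 on the minus strand, and that of Kdm4a in coding sequence at chr4:118138219-118138239 on the minus strand.

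The second group had a higher level in both chambers than in either cushion library.
Kmt5b: catgCACTTGCAGTATTGAGG
Ep300: catgCAATTAAGGTTGATTAC
Both lie in 3′ UTRs on the plus strand, at chr19:3818249-3818269 and chr15:81651965-81651985.

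The third group shows pairs of tags from the same gene that moved apart between wild-type and *Twist1* null AVC, and Hdac7, whose leading tag starts with T.
Chd4, 3′ UTR: catgTGCAGGAGCTGGCGGGC
Chd4, coding: catgCCCGAACTGGCTGAAGT
Suz12, last site: catgTAAGATGATAAAGCATT
Suz12, next site: catgGTGTCTTCAGAGATTTA
Smarca4, 3′ UTR: catgCGCGTGCCGGCCGCTCC
Smarca4, coding: catgCCAACACTGAGCGGGAG
Hdac7, 3′ UTR: catgTTTTTGTAAAAAAGAAA
The Chd4 tags lie at chr6:125130221-125130241 and chr6:125121551-125121571, and the Suz12 tags, both in the 3′ UTR, at chr11:80033972-80033992 and chr11:80033397-80033417, all on the plus strand. The Smarca4 tags lie at chr9:21703236-21703256 and chr9:21641014-21641034 on the plus strand, and the Hdac7 tag at chr15:97792715-97792735 on the minus strand.

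Listed tags numbered 6075421 in AVC, 5267618 in OFT, 4666514 in atria, 4223810 in ventricles and 12977237 in the *Twist1* null AVC. Levels are tags for every 1000000 listed tags of the library (TPM). A tag type is listed with at least 6 tags, which is 0.988 TPM in AVC, 1.14 in OFT, 1.29 in atria, 1.42 in ventricles and 0.462 in null, so that a level of 0 means no listed tag and not absence of the transcript. Twist1 itself was at 918 TPM in AVC, 299 in OFT, 63.4 in atria, 55.9 in ventricles and 4.55 in null. Haemoglobin tags made up 22% of the atria, 4.75% of the ventricles and 3.05% of the null, against 0.367% and 0.433% in AVC and OFT. Tags whose first base after the NlaIII site is T made up 13.6% of the AVC, 15% of the OFT, 32.1% of the atria, 22.2% of the ventricles and 32.4% of the null. All 10 cardiomyocyte markers checked had tags in every library. Of 9 markers of cushion mesenchyme, 9 had tags in AVC, OFT and null, 7 in atria and 8 in ventricles.

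The members together held 3245 TPM in AVC, 3106 in OFT, 953 in atria, 1075 in ventricles and 3294 in the *Twist1* null AVC. The 2 chamber libraries thus lay below the other 3. Tags were found for 67 members in the AVC, 65 in OFT, 56 in atria, 54 in ventricles and 66 in null, and 51 members had tags in all 5 libraries. Both cushion libraries stood above both chamber libraries for 51 members (76.1%), against 54.9% of the 12964 genes with a wild-type tag. The opposite order held for 3 members, Hdac3, Kmt5b and Ep300, against 12.9% of genes.

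**Figure D1:**
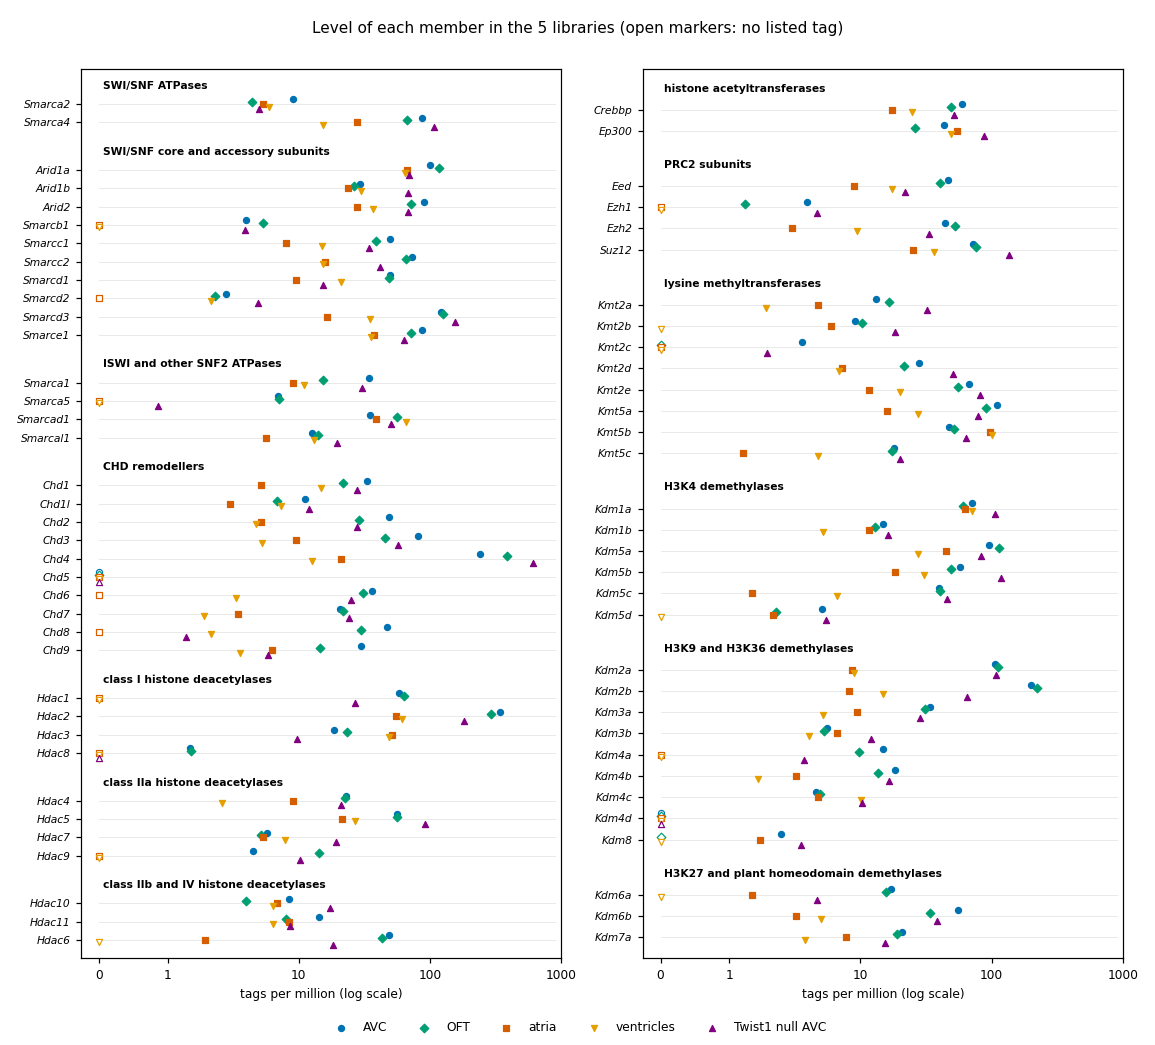
Level of each of the 69 members in the 5 libraries, in TPM on a log axis, grouped by role. Each marker is 1 library and open markers at the left edge stand for no listed tag. Hdac1, Hdac9, Kdm4a and Smarca5 have open markers for both chambers.

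In the comparison of the AVC with the chambers, which asks what sets the early valve region apart, the exact test of edgeR with a fixed dispersion called 43 of 67 members higher in the AVC and none lower at an unadjusted p under 0.05. Over all 12503 genes tested, 43.4% were called higher and 8.12% lower, and the median log2 ratio was 1.98 for the members against 1.23 for all genes. Scaling by the trimmed mean of M-values (TMM) moved the median of all genes to 0.28 and left 25 members higher and 4 lower (Hdac3, Kdm4c, Kmt5b and Smarcad1), with 25.6% and 17.5% of genes. Of the genes called, 84.2% were higher on the first scale and 59.4% under TMM. The members' median stood 0.75 above that of all genes, a difference that scaling cannot change because it shifts all genes alike. The test compares these libraries and not the conditions. Calls for 8 of the 43 members rest on no listed tag in either chamber, and for such genes a lower bound of the fold is given, with 5 unlisted tags counted in each chamber for every tag type of the gene listed in any library. Folds of genes with a listed tag on both sides count no tags for unlisted tag types. Such folds are not comparable in size with these bounds. When 5 tags were instead put in the counts for each tag type that a library of the comparison lacked and another held, 33 members were called higher and none lower, with 28% and 5.34% of genes.

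Among SWI/SNF genes, Smarca4, the ATPase also called Brg1, had 86.4 TPM in AVC, 67.2 in OFT, 27.6 in atria, 15.2 in ventricles and 107 in null. It was 3.98-fold higher in the AVC than in the chambers (exact p = 0.0082). Smarca2, the alternative ATPase, was at 9.05, 4.37, 5.36, 5.92 and 4.93 TPM in the same order of libraries and passed no test. The groups overlapped for Smarca2 and did not for Smarca4. Smarcd3, the cardiac-enriched subunit Baf60c, had 121 TPM in AVC, 125 in OFT, 16.3 in atria, 35 in ventricles and 154 in null, and was 4.80-fold higher in the AVC than in the chambers (exact p = 0.00289). Its paralogue Smarcd1 had 49.5, 48.8, 9.43, 21.1 and 15.3 TPM and was called higher as well (3.31-fold, exact p = 0.0224). Arid1a, the DNA-binding subunit of the canonical BAF complex, was close to even across the wild-type heart, with 99.3 TPM in AVC, 118 in OFT, 66.4 in atria, 64.2 in ventricles and 68.5 in null (log2 ratio to the chambers 0.60, exact p = 0.408, and -0.35 under TMM scaling). Arid1b was at 29.0, 26.4, 23.8, 29.8 and 67.8 TPM. In all, 6 of the 10 other SWI/SNF subunits were called higher in the AVC, with 43.4% of all genes. Smarcb1, the core subunit also known as Snf5, rests on few tags. It had 3.95 TPM in AVC, 5.32 in OFT, none in the chambers and 3.85 in null. These values leave out 3421 tags, over all libraries, that Smarcb1 shares with other genes.

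CHD remodellers carry chromodomains and include Chd4, the ATPase of the NuRD complex. Of 9 tested, 8 were called higher in the AVC, with 43.4% of all genes. The median log2 ratio of the 9 was 3.30, against 1.23 for all genes. Chd4 had 238 TPM in AVC, 387 in OFT, 21 in atria, 12.5 in ventricles and 611 in null, and was 14-fold higher in the AVC than in the chambers (exact p = 2.46e-06). Chd8 had 46.9 TPM in AVC, 29.8 in OFT, 0 in atria, 2.13 in ventricles and 1.39 in null. Its difference between AVC and chambers was 46.3-fold (exact p = 5.31e-09), with no tags counted for unlisted chamber tag types. Both were low in atria and ventricles alike, and in the null Chd4 was high where Chd8 was low. Chd6 had 35.9, 30.6, 0, 3.31 and 25.1 TPM in the 5 libraries in the order of AVC, OFT, atria, ventricles and null and was 22.8-fold higher (exact p = 4.30e-07). Chd7, which is mutated in CHARGE syndrome, had 20.4, 21.6, 3.43, 1.89 and 24.2 TPM and was 7.56-fold higher (exact p = 0.00041). Chd9 had 29.8 TPM in AVC, 14.4 in OFT, 6.21 in atria, 3.55 in ventricles and 5.86 in null, and was 6.02-fold higher in the AVC than in the chambers (exact p = 0.0012). These Chd9 values rest on 181, 76, 29, 15 and 76 tags in the same order. They leave out 155451 tags, over all libraries, that Chd9 shares with other genes. Chd1l was the CHD member not called, with 11.2, 6.83, 3.00, 7.34 and 12.0 TPM.

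The ISWI ATPase Smarca5 had 6.91 TPM in AVC, 7.02 in OFT, no listed tag in atria or ventricles and 0.848 in null. It stood above the chambers in the AVC by at least 1.54-fold (exact p = 1.93e-06). The Smarca5 values leave out 1078 tags, over all libraries, that Smarca5 shares with other genes. Smarca1, the other ISWI ATPase, had 34.2, 15.4, 9.0, 10.9 and 30.4 TPM and was 3.46-fold higher (exact p = 0.0188). Smarcad1, an ATPase linked to heterochromatin, was at 35.1, 56.4, 38.4, 66.1 and 50.01 TPM, with overlapping groups.

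Class I HDACs are nuclear enzymes of repressor complexes. Hdac1 had 57.4 TPM in AVC (95% exact binomial interval 51.6 to 63.8) and 63.0 in OFT (56.4 to 70.2). It had no listed tag in atria or ventricles and 26.7 TPM in null (24 to 29.7). These intervals cover counting error alone. It stood above the chambers in the AVC by at least 10.2-fold (exact p = 1.78e-13), the smallest p of any member in this comparison. Its close paralogue Hdac2 had 341 TPM in AVC, 289 in OFT, 54.9 in atria, 60.8 in ventricles and 181 in null, and was 5.90-fold higher (exact p = 0.00079). Hdac2 thus kept tags in the chambers where Hdac1 had none. The Hdac1 tag printed above is coding and also occurs in other genes, so its source is uncertain. Hdac3 went the other way, with 18.6 TPM in AVC, 23.2 in OFT, 51.2 in atria, 48.8 in ventricles and 9.63 in null. Its chamber libraries lay above its cushion libraries, with a log2 ratio of -1.43 for the AVC (exact p = 0.0568), which passed the test under TMM scaling (-2.38, exact p = 0.002). Hdac8 was near the listing limit, with 1.48 TPM in AVC, 1.52 in OFT and 0 in the other 3.

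Class IIa HDACs bind MEF2 factors and shuttle between nucleus and cytoplasm. Hdac5 had 56.0 TPM in AVC, 56.2 in OFT, 21.4 in atria, 26.8 in ventricles and 92.1 in null and did not pass the test (exact p = 0.0993). Hdac9 had 4.44, 14.2, 0, 0 and 10.2 TPM and was called higher in the AVC (exact p = 3.39e-05), but its 27 tags in AVC give no lower bound above 1 over its 5 tag types. Hdac4 was called higher too, with 22.9, 22.4, 9.0, 2.60 and 21 TPM, and Hdac7, at 5.76, 5.13, 5.36, 7.81 and 19.3 TPM, was not. In class IIb, Hdac6, a cytoplasmic tubulin deacetylase, had 48.7 TPM in AVC, 42.7 in OFT, 1.93 in atria, 0 in ventricles and 18.1 in null. It was 48.1-fold higher in the AVC (exact p = 3.98e-09), with no tags counted for unlisted chamber tag types. Hdac10 and the class IV enzyme Hdac11 were not called, at 8.39 and 14.2 TPM in AVC. Of the acetyltransferases, Crebbp had 59.3, 49.4, 17.6, 24.6 and 52.0 TPM and was called higher in the AVC (2.83-fold, exact p = 0.0438). Ep300 had 43.5, 26.2, 54.9, 48.8 and 88.2 TPM, with the chambers above both cushion libraries and no call (exact p = 0.725).

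PRC2 needs a catalytic subunit, Ezh1 or Ezh2, with Eed and Suz12. Ezh2 had 43.8 TPM in AVC, 52.8 in OFT, 3.00 in atria, 9.47 in ventricles and 33.6 in null, and was 7.21-fold higher in the AVC than in the chambers (exact p = 0.00034). Eed had 46.3, 40.6, 9.0, 17.5 and 22 TPM and was 3.54-fold higher (exact p = 0.0167). Suz12 had 72.3, 76.5, 25.1, 36.7 and 137 TPM and did not pass (exact p = 0.0939). Ezh1 was low, at 3.95 TPM in AVC, 1.33 in OFT, 0 in both chambers and 4.70 in null.

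Of the lysine methyltransferases, 6 of 8 were called higher in the AVC, with 43.4% of all genes. Kmt2d, which methylates H3 lysine 4 at enhancers and is mutated in Kabuki syndrome, had 28 TPM in AVC, 21.6 in OFT, 7.29 in atria, 6.87 in ventricles and 50.7 in null, a 3.95-fold difference (exact p = 0.0111). Kmt5a, the H4 lysine 20 monomethylase, had 110, 90.4, 15.9, 27.7 and 78.5 TPM and was 5.12-fold higher (exact p = 0.002). Kmt5b, which adds further methyl groups to the same lysine, lay in the opposite order at 47.1 TPM in AVC, 51.4 in OFT, 97.9 in atria, 101 in ventricles and 64.0 in null (log2 ratio -1.08, exact p = 0.141). The Kmt5b values leave out 9241 tags, over all libraries, that Kmt5b shares with other genes. Its close relative Kmt5c had 18.1, 17.5, 1.29, 4.74 and 20.2 TPM and was called higher (6.19-fold, exact p = 0.00141).

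The 3 members of the H3 lysine 27 group, Kdm6a, Kdm6b and Kdm7a, were called higher in the AVC, with 43.4% of all genes. Kdm6a (Utx), on the X chromosome, had 17.1 TPM in AVC, 15.6 in OFT, 1.5 in atria, 0 in ventricles and 4.70 in null, and was 21.7-fold higher (exact p = 2.25e-06). Kdm6b (Jmjd3) had 55.8, 34.0, 3.21, 4.97 and 38.7 TPM and was 13.8-fold higher (exact p = 5.22e-06). For H3 lysines 9 and 36, 5 of 8 tested demethylases were called higher. Kdm2b, which also recruits a Polycomb complex to CpG islands, had 201 TPM in AVC, 222 in OFT, 8.14 in atria, 14.9 in ventricles and 65.3 in null, and was 17.7-fold higher (exact p = 4.95e-07). Kdm2a had 107, 111, 8.57, 9.0 and 108 TPM, and Kdm4a had 14.8, 9.68, 0, 0 and 3.70 TPM and stood above the chambers in the AVC by at least 2.63-fold (exact p = 7.84e-09). Of the H3 lysine 4 demethylases 2 of 6 were called higher, against the same 43.4% of all genes. Their median log2 ratio was 1.32, against 1.23 for all genes. Kdm1a (Lsd1) had 70.4 TPM in AVC, 60.2 in OFT, 62.6 in atria, 71.3 in ventricles and 106 in null (exact p = 0.915). Kdm5c, on the X chromosome, had 39.5, 40.2, 1.5, 6.63 and 46.0 TPM and was 10.03-fold higher in the AVC (exact p = 5.70e-05). Its Y-linked paralogue Kdm5d had 5.10, 2.28, 2.14, 0 and 5.47 TPM, apart from 5051 tags, over all libraries, that it shares with other genes. The sex of the pooled embryos is not given in the sources used here.

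Of the 43 members called higher in the AVC, 13 were called under each of the 16 other settings tried, namely Chd2, Chd3, Chd4, Chd6, Chd8, Hdac1, Hdac6, Kdm2a, Kdm2b, Kdm4a, Kdm5c, Kdm6a and Kdm6b. The same count over all genes was not made. Under TMM scaling 18 of the 43 calls were lost, those of Arid2, Chd1, Crebbp, Eed, Hdac4, Kdm3a, Kdm5d, Kdm7a, Kmt2a, Kmt2d, Kmt2e, Kmt5a, Smarca1, Smarca4, Smarcc1, Smarcc2, Smarcd1 and Smarcd3. Over all 12503 genes tested, those called higher fell from 5427 to 3206 under TMM. With totals that leave out haemoglobin tags, 41 members were higher and 1, Hdac3, was lower, with 39.4% and 9.53% of genes. Markers moved with this comparison: the 9 cushion mesenchyme markers summed to 3828 TPM in AVC, 242 in atria and 241 in ventricles, and all 9 were called higher in the AVC. The 8 erythroid markers with tags summed to 2427 TPM in AVC, 215432 in atria and 46738 in ventricles, and all 8 were called lower in the AVC. Cardiomyocyte markers summed to 24682, 9228 and 18195 TPM, with 7 of 10 higher in the AVC. Their part in the members' ratios was not tested beyond the totals above.

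**Figure D2:**
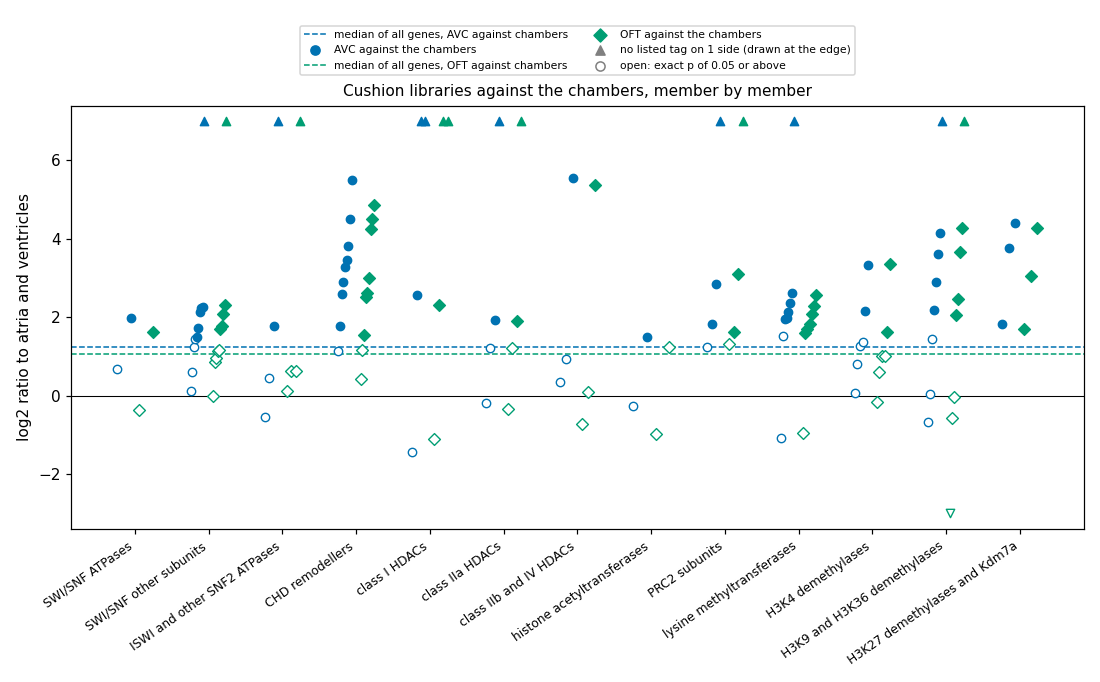
Log2 ratio of each member in the AVC (circles) and the OFT (diamonds) to the summed atria and ventricles, by role. Filled markers have an exact p under 0.05, triangles have no listed tag on 1 side and are drawn at the edge, and dashed lines give the medians of all genes at 1.23 and 1.07. Class I HDACs span a ratio of -1.43 for Hdac3 and the edge for Hdac1.

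The OFT was set against the same 2 chamber libraries, so its ratios share their reference with those of the AVC. Of 66 members tested 39 were called higher in the OFT and none lower, with 40.6% and 8.88% of 12451 genes called higher and lower. The members' median log2 ratio was 1.7, against 1.07 for all genes. TMM scaling left 22 members higher and 4 lower (Ep300, Hdac3, Kdm8 and Kmt5b), with 26.2% and 17.7% of genes. Of the genes called, 82.1% were higher before TMM scaling and 59.7% under it. Hdac1 stood above the chambers in the OFT by at least 11.2-fold (exact p = 1.50e-13), Hdac6 42.2-fold (exact p = 9.27e-09), Chd4 22.8-fold (exact p = 6.86e-08), Chd8 29.4-fold (exact p = 1.43e-07) and Kdm2b 19.5-fold (exact p = 2.40e-07). Of these, the Hdac1 value is a lower bound, and the other folds count no tags for unlisted chamber tag types. Hdac9, a class IIa enzyme, was at least 2.53-fold higher (exact p = 1.89e-08). Ezh2 was 8.69-fold higher (exact p = 0.000106) and Chd7 8.02-fold (exact p = 0.000337). Hdac2 was 5.0-fold higher (exact p = 0.00212), Smarcd3 4.95-fold (exact p = 0.00243), Smarca4 3.10-fold (exact p = 0.0295) and Kmt2d 3.05-fold (exact p = 0.0372). Chd9 was 2.92-fold higher (exact p = 0.0497). Under TMM scaling 17 of the 39 calls were lost, those of Chd9, Eed, Hdac4, Kdm3a, Kdm4b, Kdm5a, Kdm7a, Kmt2a, Kmt2b, Kmt2d, Kmt2e, Kmt5a, Smarca4, Smarcc1, Smarcc2, Smarcd1 and Smarcd3. Over all 12451 genes tested, those called higher fell from 5056 to 3257 under TMM. Arid1a, Hdac5, Hdac3 and Ep300 did not pass, with log2 ratios of 0.85, 1.23, -1.11 and -0.99. The 10 members called higher in the OFT under all 16 other settings were Chd4, Chd8, Ezh2, Hdac1, Hdac6, Hdac9, Kdm2a, Kdm2b, Kdm5c and Kdm6a, and no such count was made over all genes. By role, 7 of 9 CHD remodellers, 6 of 7 lysine methyltransferases, 5 of 10 other SWI/SNF subunits and 3 of 4 PRC2 subunits were called higher. Cushion mesenchyme markers summed to 3854 TPM and erythroid markers to 3085 TPM in OFT, and their part was not tested.

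Set directly against each other, the OFT and AVC libraries differed in few members. Of 67 tested, 1 was called higher in the OFT and 2 lower, with 5.22% and 7.35% of 12541 genes. Hdac9 was 3.20-fold higher in the OFT (14.2 against 4.44 TPM, exact p = 0.0405). Kmt2c, an enhancer methyltransferase, had 3.62 TPM in AVC and no listed tag in OFT (exact p = 0.000376), and Kdm8 had 2.47 TPM against none (exact p = 0.00278). None of these 3 calls was made when 5 tags were counted for each missing tag type, where 1.24% of genes were higher and 1.99% lower. Under TMM scaling 1 member was higher and 2 lower, with 5.45% and 6.24% of genes. The members' median log2 ratio was -0.19 and that of all genes -0.10. Of 9 cushion mesenchyme markers, 3 were lower in the OFT, and their part was not tested.

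Ventricles and atria also differed in few members. Of 59 tested, 4 were called higher in the ventricles (Chd6, Chd8, Smarcd2 and Kdm5c) and 5 lower (Kmt2b, Kdm5d, Hdac6, Kdm8 and Kdm6a), with 11.1% and 9.03% of 10705 genes. In 8 of these 9 members 1 chamber had no listed tag and the other had at most 6.00 TPM. Kmt2b, an H3 lysine 4 methyltransferase, had 6.00 TPM in atria and none in ventricles, at least 5.07-fold (exact p = 9.29e-05), and its tag starts with T. Kdm5c was at 1.5 TPM in atria and 6.63 in ventricles (exact p = 0.0378). Under TMM scaling 3 members were higher and 6 lower, with 9.16% and 10% of genes. Erythroid markers were lower in the ventricles in 6 of 8 cases, and their part was not tested. Among genes with at least 50 tags in the 2 libraries no member was called in either direction, with 4.98% of genes higher and 1.71% lower. Hdac2, Hdac3, Arid1a, Kmt5b, Kdm1a and Ep300, which had between 48.8 and 101 TPM in both chambers, showed log2 ratios from -0.17 to 0.19.

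For the *Twist1* null AVC against the wild-type AVC, 1 of 67 members was called higher and 8 lower, with 11.9% and 12.7% of 12963 genes. The median log2 ratio was -0.16 for the members and -0.16 for all genes. Under TMM scaling, which moved the median of all genes to 0.08, 4 members were higher and 6 lower, with 14.9% and 9.36% of genes. Of the genes called, 48.3% were higher before TMM scaling and 61.4% under it. Chd8 had 46.9 TPM in the wild-type AVC and 1.39 in null, 33.8-fold lower (exact p = 2.22e-08), and was the member called under all 13 other settings. Smarca5 had 6.91 and 0.848 TPM (8.16-fold lower, exact p = 0.00103) and Chd9 29.8 and 5.86 TPM (5.09-fold lower, exact p = 0.00259), without the tags they share with other genes. By the Benjamini-Hochberg adjusted p of the edgeR exact test, these 3 members were lower and none was higher. Over all genes, 3.93% were lower and 5.06% higher. The study's own edgeR exact p for Chd9 in this comparison lies just above 0.05. Kdm4a had 14.8 and 3.70 TPM (exact p = 0.0116), Kdm6a 17.1 and 4.70 TPM (exact p = 0.017), Smarcd1 49.5 and 15.3 TPM (exact p = 0.0238) and Kdm2b 201 and 65.3 TPM (exact p = 0.0281). Under TMM scaling the calls of Kdm2b and Smarcd1 were lost, and with tags at the last site alone Smarca5 was not called and Chd9, which has no listed tag there, was not tested. Hdac8 had 1.48 TPM in the wild type and none in null (exact p = 0.00545), a call that was lost when missing tag types were filled in. Hdac7 was the member called higher, with 5.76 TPM in the wild type and 19.3 in null (3.34-fold, exact p = 0.0263).

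Members with known heart roles mostly did not pass this comparison. The log2 ratio of null to wild type was 1.02 for Ep300, 0.86 for Kmt2d, 0.72 for Hdac5, 0.35 for Smarcd3, 0.30 for Smarca4 and 0.25 for Chd7. It was -0.38 for Ezh2, -0.53 for Arid1a, -0.91 for Hdac2, -0.95 for Hdac3 and -1.10 for Hdac1, with exact p between 0.135 and 0.742 over these 11 members. Chd4 had a ratio of 1.36 (exact p = 0.063). Hdac9, a member with a known heart role that is not among the 11, had 4.44 TPM in the wild type and 10.2 in null. It was not called here, but was called higher with dispersion 0.05 and with TMM on tags that do not start with T. Cushion mesenchyme markers moved with this comparison, at 3828 TPM in the wild type and 912 in null with 5 of 9 called lower. Twist1, the gene knocked out, is among those 5, at 918 and 4.55 TPM. Erythroid markers stood at 2427 and 27365 TPM, with 5 of 8 called higher. The part of either set of markers in the members' values was not tested.

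The tags of a single member did not always move together between the 2 AVC libraries. Counts below are not scaled, and the null library holds 12977237 listed tags against 6075421 in the wild-type AVC. Chd4 had 923 wild-type and 7835 null tags of its 3′ UTR type, which starts with T, and 125 and 29 tags of the coding type printed above. Suz12 had 308 and 1580 tags at its last NlaIII site, where the tag starts with T, and 125 and 81 at the next site. Kmt5a had 11 and 340 tags of a type that starts with T, and 396 and 358 of its leading type. In these genes the tags that start with T had gained on the others. The leading tag of Hdac7 starts with T and went from 25 to 205 tags, and without tags of this kind Hdac7 was not called (log2 ratio 1.07, exact p = 0.252).

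In 31 members with at least 20 tags of each kind, the log2 ratio of null to wild-type AVC was higher for the tags that start with T than for the other tags in 28, with a median difference of 1.28. Over all genes the same held in 3260 of 4122, with a median difference of 1.62. Tags of members that start with T summed to 687 TPM in AVC, 756 in OFT, 214 in atria, 290 in ventricles and 1506 in null. The other tags of members summed to 2558, 2350, 740, 785 and 1788 TPM in that order. Thus the null stood above the wild-type AVC for the first kind and below it for the second. Chd7 had no listed null tag of the second kind, and its 314 null tags all start with T. With tags that do not start with T, 1 of 64 members was called higher in the null and 13 were called lower (20.3%), with 8.49% and 19.2% of 11618 genes. The 13 were Chd4, Chd7, Chd8, Chd9, Ezh2, Kdm1a, Kdm2b, Kdm4a, Kdm5d, Kdm6a, Smarca5, Smarcd1 and Smarcd2. With TMM scaling of these tags 4 were called higher and 10 lower, with 14.2% and 10.7% of genes. The strain, the genotype and the library cannot be told apart in these values.

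**Figure D3:**
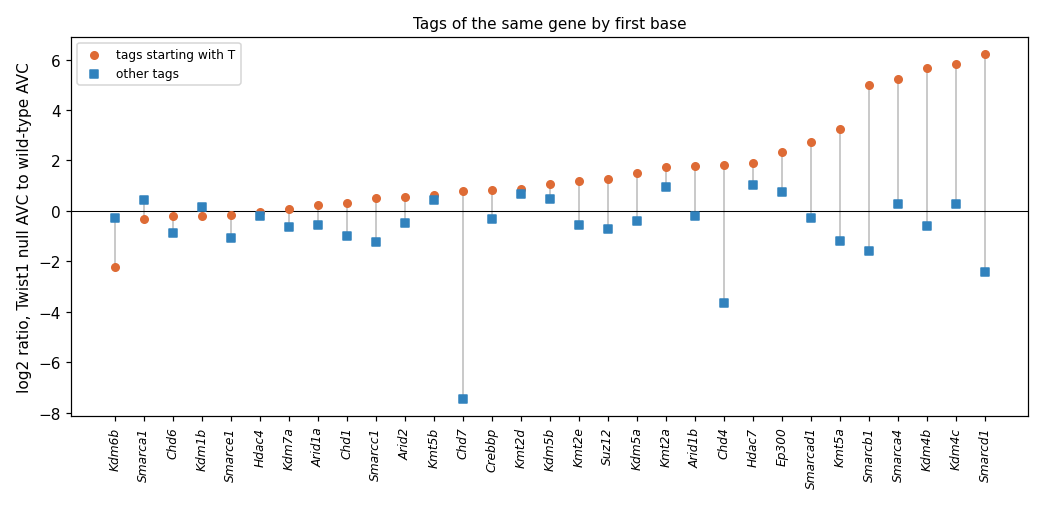
Log2 ratio of the Twist1 null AVC to the wild-type AVC for tags that start with T (circles) and for the other tags (squares) of the same gene, with 0.5 added to each count. Shown are the 31 members with at least 20 tags of each kind, and in 28 of them the circle lies above the square.

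Position along the transcript also separated the libraries. Of the 326 tag types of the members, 189 lie in 3′ UTRs, 136 in coding sequence and 1 in a 5′ UTR. The number of coding tag types listed was 96 (AVC), 91 (OFT), 11 (atria), 11 (ventricles) and 51 (null). Coding tags summed to 706 TPM in AVC, 703 in OFT, 78.6 in atria, 105.4 in ventricles and 424 in null. They made up 21.8% of the members' tags in AVC, 22.6% in OFT, 8.25% in atria, 9.80% in ventricles and 12.9% in null. Over all genes the coding share was 29.8%, 31.9%, 22.1%, 28.4% and 21.7%. In 14 members with at least 20 tags of each kind, the log2 ratio of AVC to chambers was higher for coding than for 3′ UTR tags in 10, with a median difference of 3.90, against 1.796 over 1747 genes. The chambers and the null were lower than the AVC and OFT in the coding share, among the members and over all genes.

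**Figure D4:**
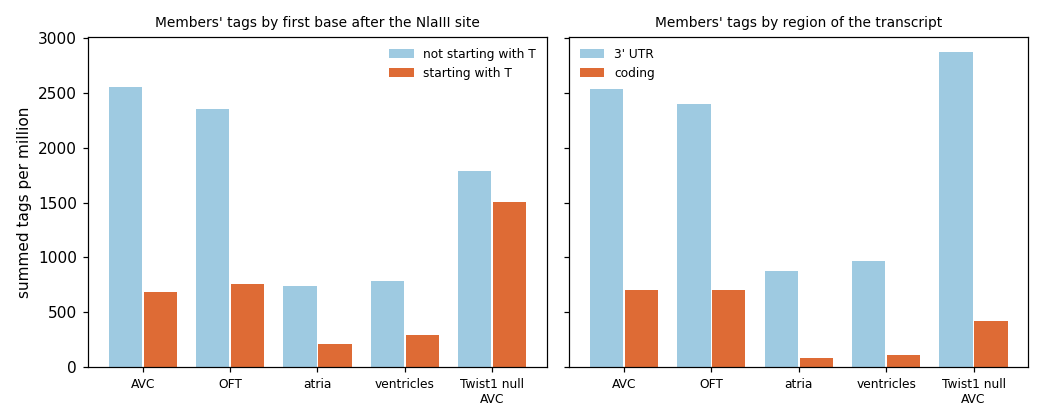
Summed TPM of the members in each library, split by the first base after the NlaIII site (left) and by transcript region (right). Tags that start with T reach 1506 in null and 687 in AVC, and coding tags reach 706 in AVC and 78.6 in atria.

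Smarca4 shows this pattern in 1 gene, with tag counts here not scaled to the library totals. Its 3′ UTR tag at the last site had 373 tags in AVC, 254 in OFT, 108 in atria, 64 in ventricles and 1176 in null. Its coding tag had 81, 52, 0, 0 and 0 tags. The coding tag was thus listed in the wild-type cushion libraries and in none of the other 3. Of the 7 leading tag types of Chd4, 6 are coding, and 5 of these had no listed tag in either chamber. Chd8 rests mainly on its coding tag at the last site, with 249, 129, 0, 9 and 11 tags, which holds 249 of its 285 tags in AVC. With tags at the last site alone, Chd8 was still called lower in the null (log2 ratio -5.57, exact p = 3.57e-09). The tags of Hdac1, Hdac6 and Kdm4a printed above are coding as well.

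**Figure D5:**
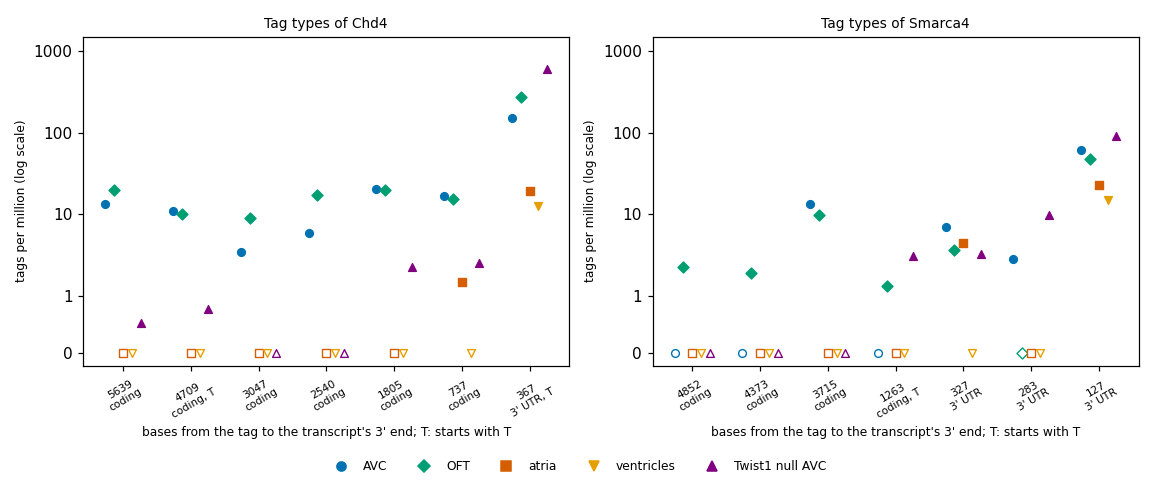
TPM of the 7 leading tag types of Chd4 (left) and Smarca4 (right), ordered by their distance to the 3′ end of the transcript, on a log axis. Markers are the 5 libraries and open markers stand for no listed tag. The 3′ UTR type of Chd4 that starts with T is listed in all 5 libraries, and the chambers have open markers at most coding types.

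A list of 86 further chromatin genes, such as PRC1, PRC2 accessory, NuRD, COMPASS, sirtuin and bromodomain genes, gives the wider pathway. Of 83 with tags, 42 were called higher and 3 lower in the AVC than in the chambers, and 39 higher and 5 lower in the OFT. The shares over all genes were 43.4% and 8.12% for the AVC and 40.6% and 8.88% for the OFT. In the null 4 were called higher and 12 lower than in the wild-type AVC, with 11.9% and 12.7% of all genes. Under TMM scaling 23 were higher and 8 lower in the AVC, with 25.6% and 17.5% of all genes. The OFT then had 24 higher and 10 lower, with 26.2% and 17.7% of all genes. The null had 9 higher and 6 lower, with 14.9% and 9.36% of all genes. The balance of calls in the null turned over all genes as well, from 48.3% higher to 61.4%. The listed genes summed to 5691 TPM in AVC, 5905 in OFT, 2901 in atria, 3964 in ventricles and 4615 in null. Jarid2, a PRC2 partner needed in heart development, had 44.1 TPM in AVC, 36.3 in OFT, 12.9 in atria, 10.2 in ventricles and 64.0 in null and was called higher in the AVC (exact p = 0.0116).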

How the data were processed

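The 5 Tag-seq libraries, 1 per group, were analysed. Per the labels and the study's methods, cDNA made on oligo(dT) beads from DNase-treated RNA was cut with NlaIII and MmeI. The deposited values are counts per tag type. The authors kept tag types with more than 5 tags, and each tag type is given by 17 bases that follow the enzyme's site. Per the labels the authors' genome build was mm9, and mapping to genes is not part of these files. Virtual tags were taken from the 33363 GENCODE M21 transcripts (GRCm38) linked to RefSeq, at every NlaIII site, with 20 adenines added. Tags with a sense match in 1 of the 24303 genes and in no other were kept, and their counts were summed per gene. No genome was used, so matches outside transcripts were not checked. Totals of listed tags set the scale.

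With 1 library per group the spread cannot be estimated, so the exact test of edgeR 4.0.16 (R 4.3.3) (two-sided) was run with dispersion 0.12, the study's choice, over all genes with a tag, and calls use an unadjusted p under 0.05, as in the study. The study's own folds and p-values differ from these for genes it names. It gives Chd9 in the null a p just above this threshold. It also called fewer genes enriched in the AVC over the chambers. For the chambers, counts of atria and ventricles were summed. The script was tested on simulated data. Alternatives (14 planned and 2 added after the data were seen) included TMM, DESeq2 1.42.0 size factors and tags that do not start with T. The added ones count 5 tags for each missing tag type, or join TMM with tags that do not start with T. Named are up to 6 members per direction and comparison with the smallest p, a fixed list of members with heart roles, and other members for their levels or lack of tags. Members and lists were chosen with earlier results of these data known. Tables and figures were made with Python 3.11.15, numpy, pandas and matplotlib. No column of samples was left out. Sequences of members on 1 chromosome are not reported here.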

Additional observations from a re-analysis of the deposited data

Results flagged for a closer look

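Antisense tags, which the comparisons do not use, were found for the members in every library. They summed to 296 TPM in AVC, 328 in OFT, 100 in atria, 120 in ventricles and 473 in the *Twist1* null AVC. They came from 45, 44, 17, 17 and 47 members in that order. Set against the members' sense tags they made up 9.12%, 10.6%, 10.5%, 11.2% and 14.4%, and over all genes 8.46%, 9.13%, 4.06%, 4.80% and 12.3%.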

How the results depend on the processing

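No paired analysis was possible because each group has 1 library, and for the same reason no replicate could be left out; atria alone and ventricles alone served in its place. In the AVC against the chambers, members called higher numbered 25 with TMM, 25 with DESeq2 size factors and 19 with dispersion 0.4. They numbered 28 with TMM on tags that do not start with T, an alternative chosen after seeing the data. The shares of all genes called higher in these settings were 25.6%, 25.2%, 20.3% and 29.5%. Members called lower numbered 4, 4 and 5 with TMM, DESeq2 and the combined setting (TMM, no tags that start with T). They numbered 2 with dispersion 0.05, and 1 each with totals without haemoglobin, thinned counts and the chambers as 2 libraries. The shares of all genes called lower were 17.5%, 17.9%, 16.5%, 12.2%, 9.53%, 8.68% and 7.76% in that order. In the OFT, the higher calls were 22, 22, 16 and 24 in the order given for the AVC, with 26.2%, 26%, 19.4% and 30.9% of all genes. The lower ones were 4 with TMM, DESeq2, dispersion 0.05 and the combined setting, and 1 with atria alone and with totals without haemoglobin. The shares of all genes called lower were 17.7%, 17.9%, 13.8%, 17%, 7.89% and 10.7% in that order. In the null against the AVC, higher calls were 4 with TMM, DESeq2, the last NlaIII site and the combined setting, with 14.9%, 14.8%, 13% and 14.2% of all genes. They were 10 with dispersion 0.05 (18.8% of all genes), and 0 with dispersion 0.4 (3.9%) and with adjusted p (5.06%). Lower calls were 3 with adjusted p, 2 with dispersion 0.4 and 13 with tags that do not start with T, with 3.93%, 2.36% and 19.2% of all genes. For the OFT against the AVC, higher calls were 2 at the last site and 0 with dispersion 0.4, adjusted p, tag types of more than 10 tags and missing tag types counted as 5 tags (also chosen after seeing the data). The shares of all genes called higher were 5.83%, 2.46%, 1.24%, 5% and 1.24% in that order. Lower calls were 4 with dispersion 0.05, 1 with adjusted p and 0 with at least 50 tags and with filled tag types, with 12%, 1.88%, 2.16% and 1.99% of all genes. For ventricles against atria, higher calls were 10 with dispersion 0.05, 2 with tag types of more than 10 tags and with the combined setting, 1 with dispersion 0.4 and adjusted p, and 0 with at least 50 tags and filled tag types. The shares of all genes called higher were 19.8%, 12.8%, 10.1%, 4.03%, 3.47%, 4.98% and 4.03% in that order. Lower calls were 8 with tags that do not start with T and with the combined setting, 1 with dispersion 0.4, adjusted p and filled tag types, and 0 with at least 50 tags. The shares of all genes called lower were 10.8%, 11.5%, 4.28%, 2.8%, 1.44% and 1.71% in that order.

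The sign of a log2 ratio turned as follows, and none of these ratios was called before or after except Chd7 in the null. Arid1a went to -0.35 (TMM), -0.39 (DESeq2) and -0.51 (combined) in the AVC, to -0.0076, -0.0266 and -0.10 in the OFT, and to 0.0353 in the null (combined). Chd7 in the null went to -8.97 without T-starting tags (exact p = 8.94e-07) and -8.60 in the combined setting (exact p = 2.92e-06), values that depend on the prior count because the null then has no listed tag, and in the OFT against the AVC to -0.34 (more than 10 tags), -0.0285 (no T-starting tags) and -0.0273 (filled). Kmt2d in the OFT against the AVC went to 1.07 and 1.17 with the same pair of settings as Chd7 in the null, and in ventricles against atria to 0.41 (more than 10 tags, last site) and 0.14 (filled). Hdac2 in ventricles against atria went to -0.17 (TMM), -0.16 (DESeq2), -0.14 (no haemoglobin) and -0.10 (combined), and Hdac5 to -0.0018 (TMM). The members' median minus that of all genes in the null went to 0.055 (at least 50 tags), 0.16 (last site), 0.064 (thinned) and 0.0306 (filled). The cause was not tested. Depth limits members with few tags, since tag types of 5 or fewer tags are not listed.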
